A study of Danio rerio with 13 samples.

Results

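The libraries described here are the 5 made from brains of wild-type male zebrafish (Danio rerio) of the AB strain, a widely used laboratory strain, taken at 3 months of age, when the fish are young adults. They were chosen by their strain label alone, and they are 5 of the 13 libraries in the study, which compared wild-type fish with carriers of a mutant tert allele. The tert gene encodes the catalytic protein of telomerase, the enzyme that extends chromosome ends. Each library came from 1 brain and is called fish 1 to fish 5 here, in the order of the sample records. The 5 heterozygous tert+/- fish, also AB males of 3 months, were used to see whether the spread between wild-type fish was also found within another genotype. They and the remaining libraries, from homozygous tert-/- fish of the same strain and age, also entered an alternative trend of spread fitted to all 13 libraries. Gene lengths were recovered from all 13 as well. No level was compared between genotypes. Gene symbols are those given to the zebrafish gene identifiers by the annotation table at hand, and many of them lack the letter that tells zebrafish gene copies apart.

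The adult zebrafish brain keeps radial glia, the stem-like cells that line its ventricles, and adds neurons throughout life. Its neurons release mostly glutamate or GABA, oligodendrocytes wrap their axons in myelin, and microglia are its resident macrophages. A whole brain holds a telencephalon at the front, a large optic tectum, a hypothalamus, a cerebellum and a hindbrain, and the pineal organ on its roof carries light-sensing cells related to the photoreceptors of the eye. A bulk library sums all of these, so that fewer cells of a type and less RNA per cell cannot be told apart.

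The 5 libraries held between 22008289 and 29347329 counted reads. Between 23816 and 24043 of the 32105 genes had at least 1 read in a fish, and 18065 genes had at least 10 reads in all 5 fish. A single library of this size allows a level of up to 0.102 to 0.136 CPM (a gene's reads scaled to the size of the library) for a gene with no read, the level of 3 reads, a limit that covers counting error only. Every pair of libraries differed by far more than sampling noise, with a chi-square per degree of freedom between 19.1 and 39.7, so none was a copy of another. The labels do not say whether the fish were siblings or were raised together, and p-values measure the spread between these 5 fish. tert itself was low in wild-type brain, at 3.98, 2.29, 2.01, 2.14 and 2.61 CPM in fish 1 to 5 (2.61 ± 0.798, SD, n = 5), and its spread did not pass the test described below.

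Several fish stood apart from the others, and not in the same genes. On the first principal component of the log2 levels, which held 33.5% of the variance, fish 5 lay alone at one end at -40.7. On the second, with 29.8%, fish 1 lay farthest out at 34.3. Where leaving out 1 fish moved the count of variable genes in a list by over 1.5 times, the count without that fish stands beside it.

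Brain genes were read at high level, as the tissue label has it, and hormone genes of the pituitary near the floor. The 20 general neuron genes summed to 11430.1 ± 556 TPM (reads scaled by gene length and by library), whereas the 11 pituitary genes summed to 3.43 ± 1.63 TPM, with growth hormone gh1 at 0.447, 0, 0, 0 and 1.41 CPM. Genes of other tissues were read as well, in sums far below that of the general neuron genes. Skeletal muscle genes summed to 592 ± 216 TPM, liver genes to 458 ± 152 TPM and red blood cell genes to 709 ± 190.2 TPM. The red blood cell list does not hold hbe1 (ENSDARG00000089087), a haemoglobin gene that alone stood at 845 ± 292 TPM. All haemoglobin genes held 0.152% ± 0.0497 of TPM.

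Transcripts of the mitochondrial genome had the highest levels. The 3 genes with the highest mean TPM all encode subunits of cytochrome c oxidase, the last enzyme of the respiratory chain, with mt-co2 at 42946 ± 5474, mt-co3 at 41025 ± 5374 and mt-co1 at 39481 ± 5072 TPM (SD, n = 5). They were followed by mt-atp6, a subunit of ATP synthase, at 27040.1 ± 2342 TPM. The most read gene was mt-co1, with 25179, 32702, 28078, 36013 and 24600.4 CPM in fish 1 to 5. Fish 4 was highest in 12 of the 13 mitochondrially encoded genes by CPM, and fish 1 was lowest in 8 of them and fish 5 in 5. None of the 13 passed the test described below for a spread beyond the abundance trend, in edgeR or DESeq2, nor at an unadjusted p under 0.05.

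Among nuclear genes, epd ranked highest per length. It encodes ependymin, a secreted glycoprotein abundant in the brain fluid of bony fish, and stood at 14797 ± 5195 TPM. Next came mbpa, which encodes myelin basic protein, the protein that compacts the myelin sheath, at 11496 ± 2939.7 TPM. Both varied between fish. epd had 4481, 5368, 6548, 5063 and 9862 CPM in fish 1 to 5, highest in fish 5 (adjusted p = 0.0043, edgeR deviance test). mbpa had 8854, 19868, 15977, 13746 and 15229.9 CPM, lowest in fish 1 and highest in fish 2 (adjusted p = 0.024).

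Some other nuclear genes near the top differed little between fish. tmsb4x, which encodes a thymosin beta protein that binds actin monomers, stood at 4212 ± 201 TPM, and the cytoplasmic actin gene actb2 at 3781 ± 208 TPM. malat1, a long nuclear RNA that is not translated, spread more for its level. It was among the most read genes at 7408 ± 999.9 CPM, but ranked lower per length at 2072 ± 204 TPM. The ranking by TPM and that by CPM shared 14 of their 20 leading genes. The 10 most read genes of a fish held 9.41% to 12.9% of its counts and the 100 most read held 24.2 ± 1.63%.

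Named genes were sorted by name into 31 functional classes. Mitochondrially encoded proteins were the largest class, with 9.42% ± 1.28 of counts (SD, n = 5) from 13 genes. GTPases and trafficking proteins followed at 2.53% ± 0.0676, splicing and RNA-binding proteins at 2.51% ± 0.0895, cytosolic ribosomal proteins at 2.14% ± 0.180 and myelin proteins at 2.12% ± 0.503. The first and second of these 4 classes were above ribosomal proteins in every fish, whereas the mean of the myelin class differed from those of the other 3 by less than its own SD. Only 11 genes made up the myelin class, against 427 for GTPases and trafficking.

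Counting per gene length gave short genes more weight. By TPM, mitochondrially encoded proteins held 21.9% ± 2.46, ribosomal proteins 4.46% ± 0.419 and the nuclear subunits of oxidative phosphorylation 2.59% ± 0.185, the last against 1.24% ± 0.103 of counts. The share of adhesion and guidance molecules went from 1.19% ± 0.0298 of counts to 0.512% ± 0.0184 of TPM. Genes with a name but in none of the other classes held 57.0% ± 1.23 of counts, and genes with no symbol held 2.66% ± 0.134.

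**Figure D1:**
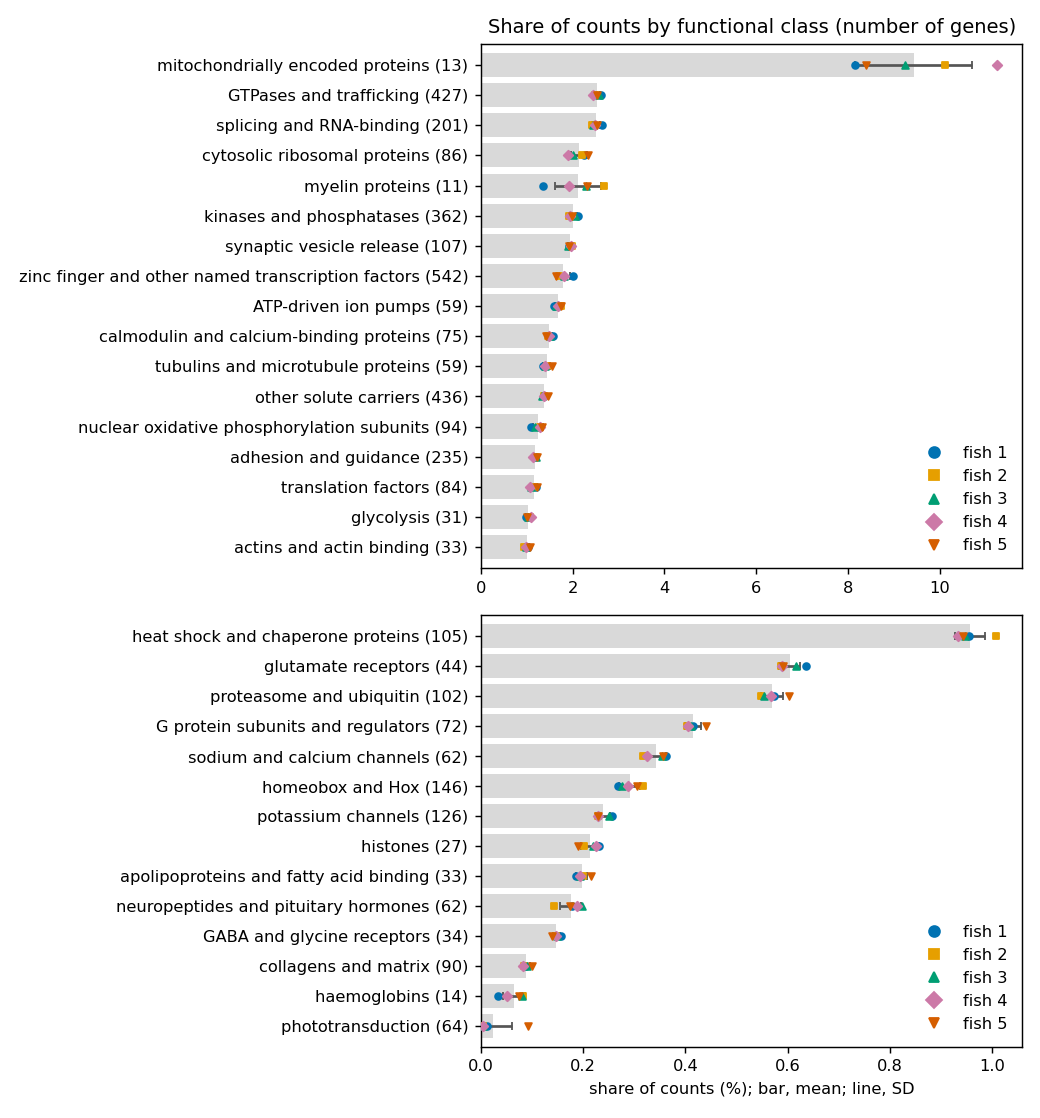
Share of counts in each functional class in each wild-type fish, with the number of genes in brackets. Bars are means and lines are the SD over 5 fish, on a linear axis in % (the lower panel enlarges the smaller classes). Mitochondrially encoded proteins lead at 9.42%, and fish 5 lies far above the others in phototransduction, at 0.0919%.

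Classes of basic neuronal work were held to close shares. The machinery of synaptic vesicle release took 1.94% ± 0.0418 of counts, led by a snap25 copy (ENSDARG00000020609) at 2664 ± 134 TPM, a SNARE protein that drives vesicle fusion. ATP-driven ion pumps took 1.68% ± 0.0601, glycolysis 1.04% ± 0.0449 and glutamate receptors 0.604% ± 0.0214. The share of each of these varied between fish by a coefficient of variation (CV) under that of the mitochondrially encoded class, 13.5%. So did classes not particular to neurons, such as splicing and RNA-binding at 3.57% and proteasome and ubiquitin at 3.70%. Wider than the mitochondrially encoded class were myelin proteins at 23.8%, haemoglobins at 32.9% and phototransduction proteins at 162%. Fish 1 was lowest in myelin, at 1.36% of counts against 1.91% to 2.69% in the other 4, and lowest in haemoglobins, at 0.0337% against 0.0521% to 0.0831%.

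Markers of the main brain cell classes were read at very different levels. Per length, the 13 genes of myelinating oligodendrocytes summed to 15549.8 ± 3531 TPM, a higher mean than that of the 20 general neuron genes, although in fish 1 they summed to 10468 against 12413 TPM. Most of the myelin sum came from mbpa. The median member stood at 137 TPM in the myelin list, against 467 TPM in the neuron list. Radial glia and astroglia genes summed to 7003 ± 290.4 TPM over 28 genes, led by a fabp7 copy (ENSDARG00000007697), a brain fatty acid binding protein of radial glia, at 2054 ± 47.5 TPM, and by glul, glutamine synthetase, at 1405 ± 151 TPM. Markers of oligodendrocyte precursors summed to 214 ± 6.0 TPM, of microglia to 746 ± 72.1 TPM and of endothelium, the lining of blood vessels, to 293 ± 13.9 TPM. These sums depend on which genes were listed and do not count cells.

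The main genes of inhibitory transmission were each read at a higher level per length than the best-read copies of the vesicular glutamate transporters. The levels of gene copies were not summed, and enzymes and transporters are unlike kinds of gene. gad1 and gad2, the enzymes that make GABA, stood at 527 ± 43.7 and 341 ± 32.1 TPM, and slc32a1, which loads GABA and glycine into vesicles, at 214 ± 20.2 TPM. The best-read copies of the glutamate transporters, slc17a7 (ENSDARG00000016480) and slc17a6 (ENSDARG00000041150), stood at 89.8 ± 25.5 and 73.8 ± 11.6 TPM, a difference smaller than the SD of the first. Cholinergic neurons were marked by chat, which makes acetylcholine, at 22.97 ± 2.75 TPM. Serotonin and dopamine enzymes were lower still, tph2 at 10.48 ± 2.63 and th at 17.4 ± 4.56 TPM.

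The rest of the account is about which genes varied between the 5 wild-type fish. Each gene was tested for a spread wider than counting error. Separately, it was tested for a spread wider than the trend of spread with abundance fitted to these fish. For genes above 1 CPM that trend lay above the spread of the typical gene. Between 10 and 100 CPM its median was 15.9%, against a median CV of 9.53%. A gene that did not pass may therefore still spread more than most genes of its level. Of 18027 genes tested, 12898 (71.5%) varied beyond counting error and 577 (3.20%) beyond the trend, at an adjusted p under 0.05. The latter are called variable genes below. The lists below were chosen with earlier results of these data known, which can raise their counts above the 3.20% of all genes. The typical gene was steady, since the median SD of log2 CPM was 0.183, and the highest and lowest fish were within 1.5-fold of each other for 63.0% of genes. They were over 2-fold apart for 15.2% of genes and over 10-fold apart for 76 genes. For the variable genes the median SD was 0.87.

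The variable genes were spread over the range of abundance above 1 CPM, with 239 between 1 and 10 CPM, 272 between 10 and 100 CPM, 63 between 100 and 1000 CPM and 3 above, which were mbpa, epd and rsrp1, which encodes an arginine- and serine-rich protein and was named only to complete the count. None of the 910 genes tested under 1 CPM was called. The filter on low counts kept out genes that were near 0 in any fish, including 204 with a mean of at least 1 CPM. Without that filter 782 of 26063 genes (3.00%) were called, 146 of those 204 among them.

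How many genes were called depended on the tool. DESeq2's own rule for dispersion outliers marked 178 genes, and a trend fitted to all 13 libraries gave 222, and in both cases all of them were among the 577. edgeR's quasi-likelihood dispersions, tested against their trend, gave 0 genes at an adjusted p under 0.05 (lowest adjusted p 0.648) and 930 at an unadjusted p under 0.05, against 1411 in the deviance test.

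**Figure D2:**
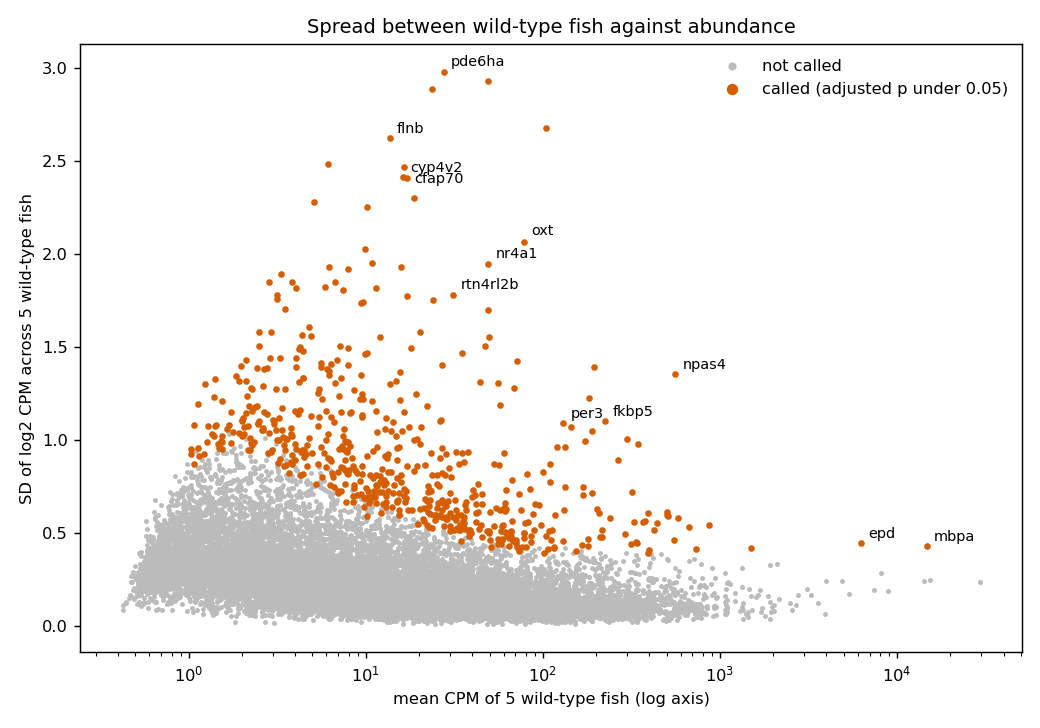
SD of log2 CPM across the 5 wild-type fish (linear axis) against mean CPM (log axis), 1 point a gene. The 577 variable genes are coloured and some are named, and pde6ha has the largest SD, 2.98, against a median of 0.183 over all genes tested.

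Fish 5 was most often the odd one out. It was the fish farthest from the mean for 196 of the 577 variable genes (33.97%), 98 times above and 98 times below. Fish 2 was farthest for 133, of which 114 were below, and fish 1 for 123, of which 81 were above. Fish 3 and fish 4 were farthest for 63 and 62. Over all genes tested fish 5 was also the most often farthest, for 25.8%, followed by fish 1 for 24.4%, and the other 3 fish were farthest for 16.4% to 16.7% each. Fish 1 thus had a smaller share of the variable genes, 21.3%, than of all genes. The differences between these shares were not tested.

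Photoreceptor genes held the largest spread of all. The list of pineal and photoreceptor genes has 56 members, of which 18 passed the filter and 8 of those were variable. Without the filter 42 of the 56 were. Over all genes the shares were 3.20% with the filter and 3.00% without it. pde6ha, an inhibitory subunit of the cone phosphodiesterase, an enzyme of the light response, had the largest SD of any variable gene. Its levels were 6.12, 1.04, 1.65, 0.738 and 128 CPM in fish 1 to 5 (SD of log2 2.98, adjusted p = 4.6e-133). gnat2, the cone transducin, had 3.53, 3.47, 3.11, 2.88 and 65.8 CPM (adjusted p = 7.4e-52). pde6c, the catalytic subunit in cones, had 6.39, 0.573, 0.548, 0.422 and 22.7 CPM (adjusted p = 4.2e-34). Fish 5 was highest in all 3, and fish 1 came next, though for gnat2 it barely exceeded fish 2, 3 and 4.

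Opsins of the retina were read almost only in fish 5. Rod rhodopsin rho (ENSDARG00000002193) had 0, 0.0358, 0.0731, 0.0703 and 265 CPM in fish 1 to 5. The cone opsins opn1lw2 and opn1mw2, for long and middle wavelengths, had 99.7 and 40.9 CPM in fish 5 and at most 0.313 and 0 CPM in the others. These genes were tested only without the filter, where rho had an adjusted p of 2.6e-307. gnat1, the rod transducin, was also read in fish 1, with 12.07, 0.107, 0.183, 0.105 and 58.2 CPM.

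A pair of genes of the pineal organ, picked after their values were seen, were not highest in fish 5. They were picked from a list with other pineal genes and do not stand for the organ as a whole. asmt, the last enzyme of melatonin synthesis, had 6.93, 0.466, 0.622, 0.316 and 0.482 CPM in fish 1 to 5, high in fish 1 alone. parapinopsinb, an opsin of the fish pineal complex, had 20.65, 15.87, 12.25, 18.48 and 13.01 CPM and was not variable. Across the tested members of the whole list of pineal and photoreceptor genes, the mean log2 level stood 1.28 above the 5-fish mean in fish 5 and 0.51 above it in fish 1, and between 0.51 and 0.70 below it in the others. Without fish 5, 6 members were called and the SD of the list's level was 0.56 instead of 0.86. Of the 20 listed genes of other retinal cells, 9 were tested and 2 called, against 3.20% of all genes. Without fish 5, edgeR's deviance test called 0 of these 9, with 1 at an unadjusted p under 0.05, and it called 1 without fish 3 or fish 4. The level of these retinal genes in fish 5 was 0.15 above the mean, equal to that in fish 1. The part that tissue from outside the brain had in these values was not tested.

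**Figure D3:**
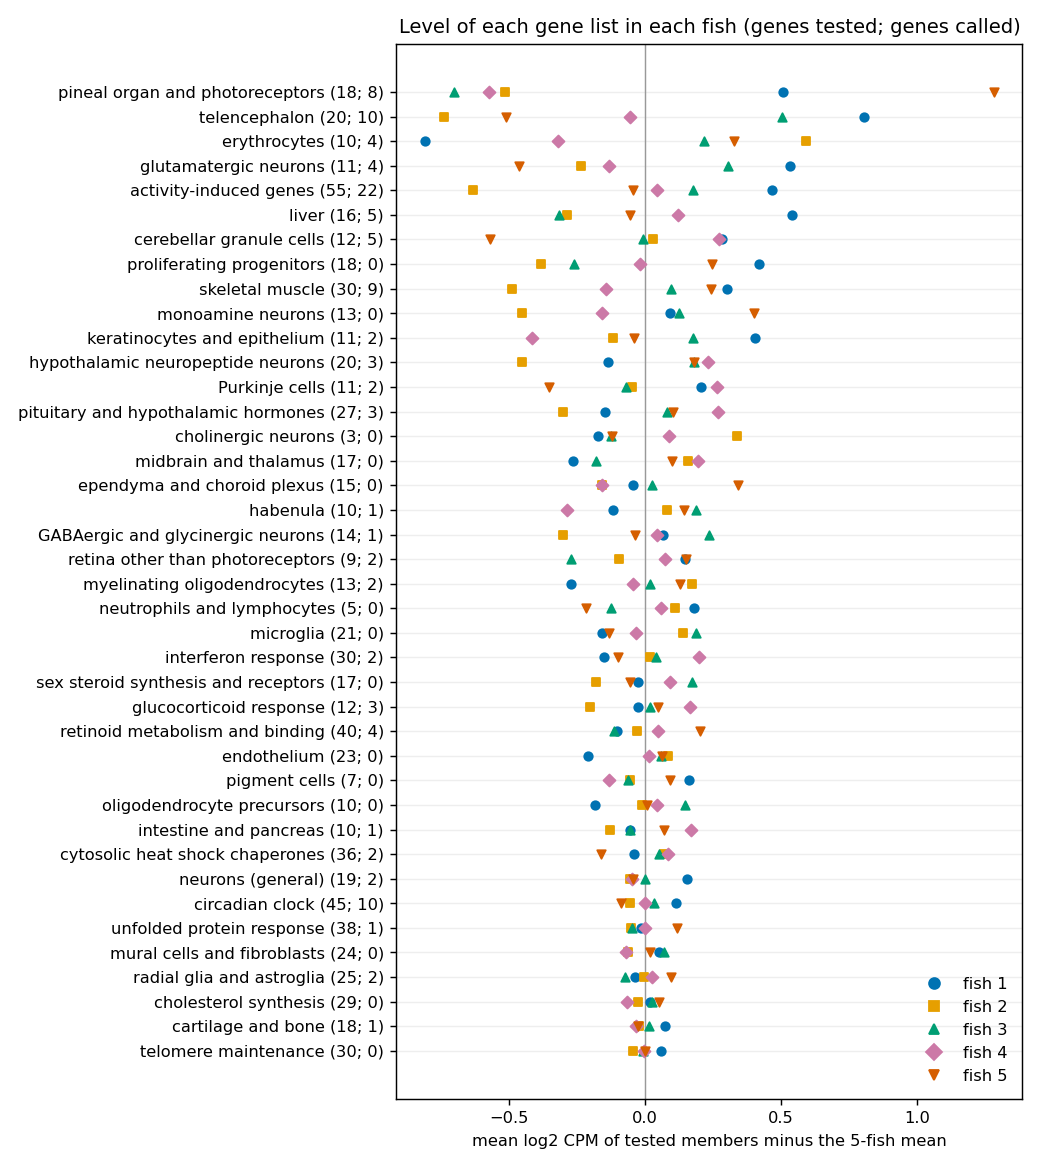
Level of each gene list in each fish, as the mean log2 CPM of its tested members minus the 5-fish mean (linear axis), for lists with at least 3 tested members. Numbers in brackets are genes tested and genes called. The levels of the photoreceptor, telencephalon and erythrocyte lists spread most, and those of the telomere maintenance and cartilage lists least. A steady level does not mean steady members, and the cartilage genes had a median SD of log2 of 0.37, against 0.183 over all genes tested.

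Telencephalon genes differed between fish in the order fish 1, 3, 4, 5 and 2. Of the 20 tested members of a telencephalon list, which was drawn up after the leading variable genes had been seen, 10 were variable. That choice can raise the count, so it cannot be weighed against the 3.20% of all genes. eomes, made in neurons of the pallium, had 122, 20.8, 74.5, 22.5 and 8.19 CPM in fish 1 to 5 (adjusted p = 2.2e-39), and tbr1, another T-box factor of pallial neurons, had 56.2, 4.15, 41.3, 13.4 and 4.30 CPM (adjusted p = 6.5e-33). emx3, a homeobox factor of the forebrain, had 10.55, 0.537, 6.11, 1.41 and 0.643 CPM (adjusted p = 2.3e-13). In each of the 3 genes fish 1 was highest and fish 3 next, and fish 2 and fish 5 were the lowest. DESeq2 marked 5 of the 20 members.

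Not every member differed between fish beyond the test's threshold, and bcl11ba, a zinc finger factor, had 157, 189, 166, 161 and 193 CPM and was not variable. Both fish 1 and fish 3 again led in other variable genes. rtn4rl2b, a Nogo receptor family member, had 89.2, 4.55, 43.4, 8.15 and 10.4 CPM (adjusted p = 1.2e-45), and bhlhe22 had 157, 42.1, 107, 56.3 and 47.3 CPM (adjusted p = 9.4e-13). Of the 17 genes of a midbrain and thalamus list, added in the same way, none was called by edgeR's deviance test or DESeq2 and 6 had an unadjusted p under 0.05 in the former. Their level spanned -0.27 in fish 1 to 0.19 in fish 4, lowest in the 2 fish that were highest for telencephalon.

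Hox genes, which mark the hindbrain and spinal cord, were nearly missing from fish 5. Their 21 listed members summed to 65.6, 106, 70.4, 27.1 and 1.37 CPM in fish 1 to 5, and 13 of the 21 had no read in fish 5, against at most 1 in any other fish. hoxb3 had 12.16, 18.8, 10.7, 7.41 and 0.161 CPM, and hoxa3 had 7.46, 11.7, 7.39, 3.34 and 0.0402 CPM. For both, fish 2 was highest and fish 5 lowest by far. Only 2 members passed the filter and 1 of them, hoxb2, was variable (1.88, 3.08, 2.89, 1.79 and 0.402 CPM, adjusted p = 0.041), though not when fish 2 or fish 3 was left out. Without fish 5, 3 of the 21 were called. Without the filter 16 of the 21 were called, against 3.00% of all genes, and hoxb2 was not among them.

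Genes of cerebellar granule cells, the small glutamatergic neurons that fill the cerebellum, were also lowest in fish 5. Of 12 tested members 5 were variable (41.7%, against 3.20% of all genes). When fish 5 was left out, edgeR's deviance test called 0 of them, with 2 at an unadjusted p under 0.05. zic1, a transcription factor of granule cells, had 598, 515, 468, 699.7 and 239 CPM (adjusted p = 4.3e-05), and cbln12, a cerebellin-like secreted synaptic protein, had 225, 172, 194, 281 and 76.1 CPM (adjusted p = 8e-08). Purkinje cells, the output neurons of the cerebellum, showed it in part. An aldoc copy (ENSDARG00000057661), an aldolase of Purkinje cells, had 306, 132, 152, 349.8 and 30.9 CPM (adjusted p = 1.3e-31), and ca8 had 82.5, 56.7, 55.02, 104 and 37.9 CPM (adjusted p = 0.00016), and these were the 2 members called of 11 tested (1 without fish 4, 3 without fish 1 or fish 2). Fish 1 and fish 4 were the highest for all 4 of these genes and fish 5 the lowest. The better-read aldoc copy of the Purkinje list (ENSDARG00000019702) did not follow this order and was not variable. It had 1918, 2372, 2217, 2353 and 1955 CPM in fish 1 to 5, lowest in fish 1 and next lowest in fish 5.

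**Figure D4:**
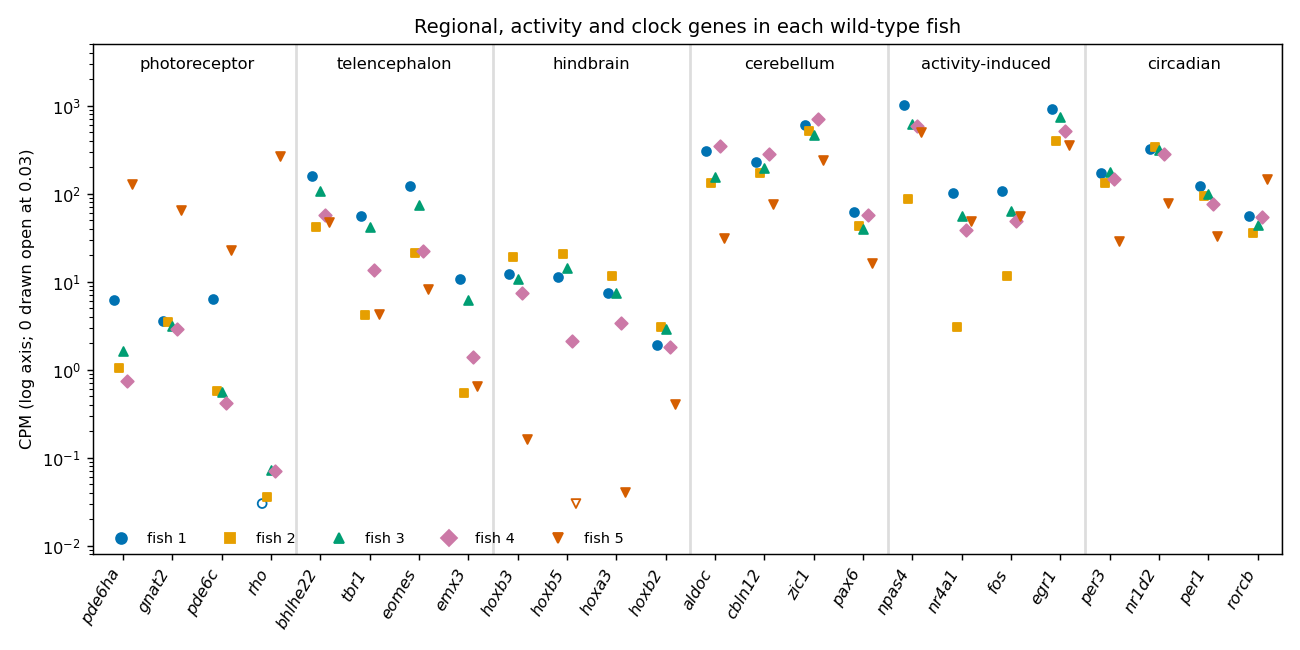
CPM (log axis, open symbols for 0) of selected regional, activity-induced and clock genes in each wild-type fish. Fish 5 is above the others for photoreceptor genes (rho 265 CPM) and below them for Hox and cerebellar genes, and fish 2 is lowest for npas4 (87.1 CPM), nr4a1 and fos.

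Genes induced by neuronal activity gave the largest number of variable genes of any list, 22 of 55 tested (40.0%, against 3.20% of all genes). The list was chosen with earlier results of these data known, which can raise that share. DESeq2 marked 14 of the 55. npas4, a transcription factor induced by calcium entry, had 1016, 87.1, 614, 578 and 499 CPM in fish 1 to 5 (adjusted p = 1.3e-27). nr4a1, an orphan nuclear receptor induced within minutes in many species, had 100.1, 3.01, 55.5, 38.7 and 48.9 CPM (adjusted p = 2.6e-38). fos had 106, 11.6, 63.4, 48.1 and 55.8 CPM (adjusted p = 8.1e-19). Fish 1 was highest and fish 2 lowest in all 3, and fish 3, 4 and 5 lay close together.

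egr1, at 909.5, 394, 736, 519 and 353 CPM, had fish 5 rather than fish 2 at the bottom (adjusted p = 1e-05). Without fish 2, 17 of the list's members were called and the SD of its level was 0.22 instead of 0.40. The list's level was 0.46 above the 5-fish mean in fish 1 and 0.63 below it in fish 2. The same 2 fish were the highest and the lowest for the telencephalon list, and the part of either list in the other's spread was not tested.

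Circadian clock genes set fish 5 apart. Of 45 tested, 10 were variable (22.2%, against 3.20% of all genes), and 2 without fish 5. per3, a period gene of the clock's negative limb, had 170.4, 130.4, 176, 146 and 29.1 CPM (adjusted p = 9e-17), nr1d2, a Rev-erb repressor, had 321, 334, 309, 279 and 78.0 CPM (adjusted p = 1.7e-11), and per1 had 121, 93.2, 98.2, 76.8 and 32.5 CPM (adjusted p = 1.5e-07). In all 3, fish 5 was the lowest by a wide gap.

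Other clock genes were highest in fish 5. nfil3-5, of the family of the repressor E4BP4, had 146, 77.5, 78.8, 141 and 423 CPM (adjusted p = 1.8e-23), and rorcb, of the ROR family of activators, had 55.4, 35.4, 44.1, 54.3 and 146 CPM (adjusted p = 2.1e-12). Because members moved in opposite directions, the list's level differed little, from -0.09 in fish 5 to 0.11 in fish 1. The hour at which each brain was taken is not given in the sources used here.

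Among genes that answer to glucocorticoids, a list also drawn up after seeing the data, 3 of 12 were variable. That choice can raise the count above the 3.20% of all genes. fkbp5, a co-chaperone of the glucocorticoid receptor and a classic target of it, had 110.0, 75.6, 141, 374 and 427 CPM (adjusted p = 5e-25), and klf9, a transcription factor induced by cortisol, had 7.69, 3.90, 8.26, 17.9 and 20.1 CPM (adjusted p = 7.3e-06). Fish 4 and fish 5 were the highest for both and fish 2 the lowest. tsc22d3, another target of the receptor, had 176, 121, 153, 155 and 160.2 CPM and was not variable, nor was the receptor gene nr3c1 (90.7 to 107 CPM).

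Neuropeptide genes varied 1 by 1. oxt, which encodes the fish oxytocin of the preoptic area, had 127, 4.66, 143, 90.03 and 28.3 CPM (SD of log2 2.06, adjusted p = 1.1e-54), far lower in fish 2 than in fish 1 and fish 3. pmchl, a melanin-concentrating hormone gene, had 20.8, 22.2, 29.5, 13.7 and 49.1 CPM (adjusted p = 7.5e-05), and npvf, which encodes RFamide peptides, had 10.55, 7.02, 5.96, 20.3 and 12.4 CPM (adjusted p = 0.0081). Each was highest in a different fish. The list of hypothalamic neuropeptide neurons holds oxt and pmchl but not npvf, and it includes some genes that encode no peptide. Of its 20 tested members 3 were variable (15%, against 3.20% of all genes). Both npy (57.0 to 94.5 CPM) and cartpt (80.7 to 138 CPM), feeding-related peptides, were not variable.

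Genes of blood and muscle also varied. The haemoglobin genes hbaa1 and hbe1 (ENSDARG00000089087) had 111, 219.6, 203, 138 and 234 CPM (adjusted p = 0.0048) and 186, 525, 511, 355 and 388 CPM (adjusted p = 1.8e-05), lowest in fish 1 for both. alas2, the enzyme that starts haem synthesis in red cells, had 19.3, 89.2, 58.2, 34.2 and 65.6 CPM (adjusted p = 1.3e-10) with the same fish lowest. Of the 6 tested genes of the haemoglobin class 5 were variable (83.3%), and DESeq2 marked 2. Of 10 tested red cell genes, a list that does not hold hbe1, 4 were variable (40%, against 3.20% of all genes), and 2 without fish 1. By contrast, hemgn (26.1 to 38.9 CPM) was not variable.

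Skeletal muscle genes had 9 of 30 tested members variable (30%, against 3.20% of all genes). Without fish 2, in which these genes were lowest, 3 were variable. actc1b, a striated muscle actin, had 199, 33.3, 164, 136 and 187 CPM (adjusted p = 1.7e-16), and atp2a1l, related to the calcium pump of the sarcoplasmic reticulum, had 33.8, 3.94, 21.1, 10.5 and 27.1 CPM (adjusted p = 5.1e-12). Liver genes had 5 of 16 variable (31.25%, against 3.20% of all genes), and 3 without fish 1. Among the 5 was the transferrin gene tfa, at 50.4, 9.35, 7.75, 21.2 and 13.9 CPM (adjusted p = 7.7e-13), highest in fish 1. rbp4, the carrier of retinol in blood, and cndp1, a secreted dipeptidase, were highest in fish 5, at 107, 104, 164, 129 and 342 CPM (adjusted p = 1.1e-10) and 53.3, 25.3, 31.5, 18.7 and 229 CPM (adjusted p = 1.5e-49).

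Both myelin basic protein genes were variable, a call that rested on fish 1 and fish 2. Besides mbpa, its paralogue mbpb had 246, 536, 413, 375 and 413 CPM (adjusted p = 0.04). These 2 were the only members called of 13 myelinating oligodendrocyte genes (15.4%, against 3.20% of all genes). Without fish 1 edgeR's deviance test called 0 of the 13, with 0 at an unadjusted p under 0.05, and without fish 2 it called 0, with 5 at an unadjusted p under 0.05. DESeq2 and the trend from all 13 libraries also called 0. plp1b, a proteolipid protein of myelin, had 1414, 2483, 2070.3, 2000.4 and 2508 CPM and mpz, which holds myelin layers together, had 1359, 2223, 1927, 1710.0 and 2429.8 CPM. Neither passed the test (adjusted p = 0.31 and 0.32), although fish 1 was the lowest in all 4.

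Most glial, vascular and housekeeping lists had few or no variable genes. Of 25 radial glia and astroglia genes 2 were called, 1 without fish 4 and 0 without fish 5. A fabp7 copy other than the best-read one (ENSDARG00000034650) was variable, at 3.26, 2.33, 2.38, 2.04 and 21.7 CPM in fish 1 to 5. None was called of 21 microglial, 23 endothelial, 24 mural and fibroblast, 15 ependymal, 10 oligodendrocyte precursor, 29 cholesterol synthesis and 30 telomere maintenance genes, nor of 86 cytosolic ribosomal and 101 proteasome and ubiquitin proteins, by edgeR's deviance test or DESeq2. At an unadjusted p under 0.05 in the former there were between 0 and 4 genes in each of these groups. Over all genes tested 3.20% were called, so a short list can hold no call at that share too. Without fish 1, 1 of the mural and fibroblast genes was called. The telomere list had a median SD of log2 of 0.14 and the cholesterol list of 0.15, against 0.183 over all genes. None of 18 genes of dividing progenitors was called either, though 6 had an unadjusted p under 0.05, their median SD was 0.40 and their level spanned -0.38 in fish 2 to 0.42 in fish 1, and 1 was called without fish 4 or fish 5. pcna, the sliding clamp of DNA polymerase, had 91.6, 69.02, 69.4, 66.1 and 106 CPM (adjusted p = 0.60).

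Some variable genes had few or no others called in their list or class. ern1 encodes IRE1, the sensor that cuts xbp1 RNA in the unfolded protein response. It was the only variable gene of 38 in that list (2.63%, against 3.20% of all genes). Its levels were 114, 19.99, 20.5, 21.8 and 102 CPM (adjusted p = 3.9e-31). Fish 1 and fish 5 formed a high pair, and the other 3 fish were nearly equal. The chaperone hspa5, induced in that response, had 179 to 218 CPM and was not variable. A tubulin copy, tuba1b (ENSDARG00000045367), had 71.7, 11.7, 137, 10.4 and 14.7 CPM (adjusted p = 2.2e-52).

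Such stepped patterns were counted by a rule set after seeing these genes, a gap of at least 2 on the log2 scale that took up at least 70% of the range. Of the 577 variable genes 41 met it, with 1 fish below the gap in 16 genes, 2 fish in 11, 3 fish in 5 and 4 fish in 9. cyp4v2, a cytochrome P450 of fatty acid oxidation, had 21.6, 19.6, 19.1, 19.995 and 0.402 CPM (adjusted p = 1.6e-22), and the gap took up 96.8% of the range. cfap70, a protein of motile cilia, had 77.8, 1.61, 1.75, 1.79 and 2.05 CPM (adjusted p = 8.6e-81). Each is set by 1 fish, and neither was called without that fish.

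In other stepped genes the split was 2 fish against 3. si:ch211-281l24.3 had 190.0, 5.55, 163, 158 and 5.78 CPM (adjusted p = 2.6e-97) and kcnj13, a potassium channel, had 8.67, 0.967, 9.25, 11.4 and 0.643 CPM (adjusted p = 3e-14), both low in fish 2 and fish 5. In the RefSeq annotation of another zebrafish assembly these lie on the same chromosome with 3 annotated genes between them. sla2a, an adaptor protein gene of lymphocyte signalling, had 25.5, 25.6, 0.841, 28.7 and 1.49 CPM, with a different pair low, fish 3 and fish 5. flnb, a filamin that crosslinks actin, had 0.894, 21.4, 21.5, 23.6 and 0.603 CPM (adjusted p = 1.9e-36), low in fish 1 and fish 5.

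An unnamed gene, ENSDARG00000053746, had 127, 108, 3.47, 3.87 and 1.81 CPM (adjusted p = 3.7e-122). mhc2dab, a class II antigen-presenting gene of a family whose gene content can differ between fish, had 1.21, 1.58, 13.9, 13.95 and 23.3 CPM (adjusted p = 1.4e-21). Reads of near-identical gene copies may be shared out unevenly in counting, so levels of such family members are uncertain.

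**Figure D5:**
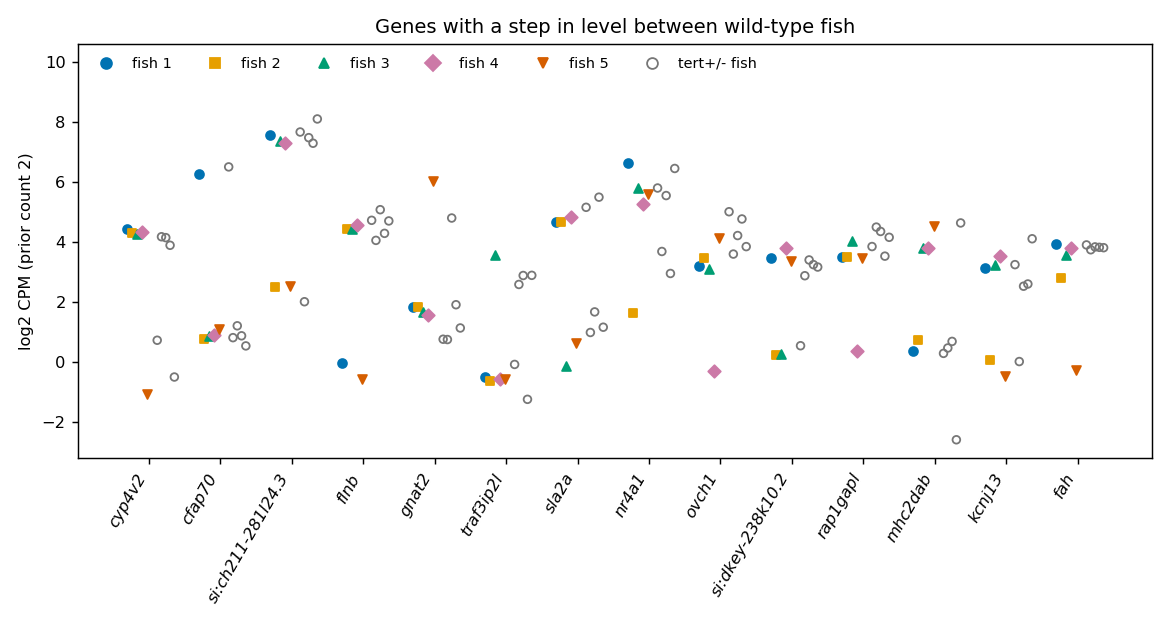
Levels (log2 CPM, linear axis) of 14 variable genes with a step between wild-type fish, with the 5 tert+/- fish as open circles. cyp4v2 is low in fish 5 alone, cfap70 is high in fish 1 alone, and in tert+/- fish both genes again fall at separate levels, whereas flnb does not.

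Many of the same genes varied within the tert+/- fish, which were tested alone. There 551 of 17536 genes were called (3.14%), and 267 were called in both genotypes, 46.3% of the wild-type calls and 48.5% of the tert+/- calls. The median SD of the wild-type variable genes was 0.87 in tert+/- fish as well, against 0.27 in those fish for all genes tested in wild type. Of the 41 stepped genes, 19 were variable in tert+/- fish too, cyp4v2, cfap70 and kcnj13 among them. flnb was not, with an SD of log2 of 0.40 there against 2.62 in wild type. A gene called in one genotype and not in the other was not tested for a difference in spread.

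At the other end were genes that scarcely differed between fish. Of 5029 genes with a mean of at least 1000 reads, ankrd28, a regulatory subunit of protein phosphatase 6, had the smallest CV, with 49.2, 48.4, 48.4, 48.6 and 48.4 CPM. exoc1, of the exocyst complex that tethers vesicles to the membrane, had 79.2, 79.0, 79.0, 78.1 and 79.6 CPM, and erp44, a chaperone of the secretory pathway, had 52.5, 52.7, 51.9, 53.0 and 52.1 CPM. The CVs of the 10 steadiest genes lay between 0.676% and 1.37%, against a median of 12.8% over all genes tested. ppp2r5e, ankrd12, csnk1g2, arpp19, lrrtm2, mtmr11 and prdm2 made up the rest of the 10.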

How the data were processed

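RNA from 1 whole brain per fish was sequenced, with libraries made by the TruSeq RNA version 2 kit. The submitters' processing notes name bcl2fastq 1.8.4 for the reads, STAR 2.4.1d and build GRCz10 for alignment, and featureCounts 1.4.6-p4 for counting. The authors deposited raw counts, whole numbers with no normalization. The annotation release and the strand setting are not given in the sources used here, so overlapping, antisense and duplicated genes are uncertain. The deposited RPKM values, which are counts divided by gene length and a library total, served only to recover gene lengths for 27051 genes, because the authors' library totals ran down the table in place of across it (8.24% of 198517 values matched each library's own total within 0.2%). All count columns mapped to a sample, and of 32105 genes 26269 (81.8%) had a symbol, with 4301 identifiers sharing one.

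CPM used TMM factors (0.970 to 1.02) and log2 CPM a prior count of 2. TPM came from the counts and the recovered lengths. In edgeR 4.0.16 (R 4.3.3, limma 3.58.1), genes kept by filterByExpr at a minimum count of 10, which required reads in all 5 fish, entered an intercept-only fit. The residual deviance was tested with 4 degrees of freedom, against the dispersion trend and against Poisson error, with Benjamini-Hochberg adjustment over all genes. Alternatives were other size factors, filters and dispersions, DESeq2 1.42.0, and each fish left out. The steps were tested on simulated data. A list's level is the mean log2 CPM of its tested members minus the 5-fish mean.

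The genes and the 40 lists were chosen with earlier results of these data known. Named by rule were the 20 genes with the highest TPM and 10 with the highest CPM, the 3 highest of each class, the 4 highest and up to 3 most variable of each list, the 20 variable genes with the largest SD and 10 with the lowest p, the 10 smallest CVs among genes with at least 1000 reads, and tert. Other listed genes, the telencephalon, midbrain and glucocorticoid lists, the rule for steps and the tert+/- fit were chosen after values were seen. Replicate numbers follow record order and pair no fish. Some listed results are not reported here.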

Additional observations from a re-analysis of the deposited data

Results flagged for a closer look

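In 8 of 123 sets of 5 values checked, the highest or the lowest fish lay far out. Its gap to the nearest other fish took up more than 0.71 of the whole range. Chance alone gives this in about 1 of 20 sets that are picked without regard to their values. Sets here overlap and include genes picked for a wide spread in these same fish, so that rate does not hold for them. Fish 5 stood out most often. Its share of counts in phototransduction genes was 0.0919%, its gnat2 level was 65.8 CPM, and its level of the tested hindbrain and spinal cord genes was 1.04 below the 5-fish mean on the log2 scale (a level of -1.04, from 2 genes). cyp4v2 was low in fish 5 as well, at 0.402 CPM.

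Fish 1 stood out for cfap70, at 77.8 CPM, for a level of general neuron genes 0.15 above the mean and for a level of endothelial genes of -0.21. Fish 2 stood out for nr4a1, at 3.01 CPM.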

How the results depend on the processing

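The number of variable genes, 577, rested on how the trend of spread was set. It was 178 by DESeq2's outlier rule, 222 with a trend from all 13 libraries and 0 by edgeR's quasi-likelihood dispersions (930 at an unadjusted p under 0.05). It was 576 with DESeq2's size factors, 782 with no filter and 615 with a mean of at least 1 CPM. Leaving out 1 fish gave 451 to 514 variable genes, of which 386 (without fish 5) to 479 (without fish 3) were shared with the 577, and 11420 to 12145 genes beyond counting error.

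By TPM instead of counts, the shares were 21.9% for mitochondrially encoded proteins, 1.76% for GTPases and trafficking, 1.74% for splicing and RNA-binding, 4.46% for ribosomal proteins and 1.44% for kinases and phosphatases. With mitochondrially encoded genes left out of the total, GTPases and trafficking held 2.79%, splicing and RNA-binding 2.77%, ribosomal proteins 2.36% and kinases and phosphatases 2.22%. Of the 20 leading genes by TPM, 14 also led by CPM.

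Of 23 named variable genes none passed under quasi-likelihood dispersions, cfap70 did not without fish 1, and cyp4v2 and gnat2 did not without fish 5. The SD of a list's level went to 0.15 for cerebellar granule cells and 0.56 for photoreceptors without fish 5, to 0.20 for skeletal muscle and 0.22 for activity-induced genes without fish 2, and to 0.21 for liver without fish 1. No paired analysis was possible because a single group was analysed and its numbers pair no fish. Of the 910 genes under 1 CPM, 21.8% varied beyond counting error, against 59.7% between 1 and 10 CPM, and none beyond the trend.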
